A study of Mus musculus with 2 samples.

Results

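Heat shock genes encode the chaperones that fold, hold and refold proteins in the cytosol and mitochondria. Their transcription is raised quickly after heat or other protein-damaging stress by heat shock factors, which bind inverted repeats of the unit nGAAn. Hsp70 proteins bind exposed stretches of unfolded clients, J-domain co-chaperones deliver those clients, nucleotide exchange factors release them, Hsp90 completes the folding of signalling proteins, small heat shock proteins hold unfolded chains in solution, and the chaperonin pair folds proteins inside mitochondria. Enzymatic isolation of endothelial cells is itself known to raise several of these transcripts.

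The 10 genes described here are Hspa1a, Hspa1b, Hspa8, Hsph1, Dnaja4, Dnajb1, Hsp90aa1, Hspb1, Hspd1 and Hspe1. They were found by symbol among the 32285 gene rows of both libraries, and each symbol matched 1 row. The genes were chosen by an earlier comparison of Xbp1-KO with WT pools of these data, in which several of them were higher in Xbp1-KO pools, so every value of that contrast is a description and carries no test. The products of the other 8 act mainly in the cytosol, whereas Hspd1 and Hspe1 encode chaperonins of the mitochondrial matrix and are not cytosolic.

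The transcripts were counted in single endothelial cells of mouse lymph nodes, in 2 droplet libraries that each mixed 4 hashtagged pools. Peripheral and mesenteric nodes of WT mice made up 1 pool each, as did both kinds of node of Xbp1-KO mice, and all mice had received tamoxifen. Each combination of tissue and genotype has n = 2 pools, 1 per library; the Cre line and the number, sex and age of the animals per pool are not given in the sources used here. As labelled, the 2 pools of a group held cells of opposite sex (values below) and so came from different animals. Whether the peripheral and mesenteric pools of a genotype share animals is not stated, and p-values measure the spread between these pools. The labels' protocol describes enzymatic digestion with pipetting, removal of CD45-positive cells and sorting of endothelial cells, and gives no separate protocol for mesenteric nodes.

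After filtering, 9275 cells remained, with 26690378 and 13352755 gene UMIs (unique molecular identifiers, each marking 1 captured RNA molecule) in libraries 1 and 2. Clusters built without the heat shock genes gave 3726 lymphatic cells, 4878 other blood endothelial cells, 438 high endothelial-like cells and 121 stromal cells. Prox1, which defines lymphatic endothelium, was detected in 72.8% to 95.5% of the cells of each lymphatic cluster and in 0.82% to 3.45% of the cells of each blood endothelial cluster. The pools did not share sex between libraries: the female-specific transcript Xist was found in 82.5% and 73.1% of Xbp1-KO cells in library 1 and in 85.4% and 76.8% of WT cells in library 2, but in at most 1.77% of cells elsewhere. The Y-linked transcript Ddx3y was found in 22.6% to 31.9% of cells of the other 4 pools and in at most 0.349% of the cells of the Xist-positive pools. Within a library, genotype therefore cannot be told apart from sex, whereas the sex pattern is opposite in the other library. Xbp1, the targeted gene, stood at 47.1 to 53.7 CPM (the gene's UMIs in a pool's summed cells, scaled to a common total) in lymphatic cells of the 4 Xbp1-KO pools and at 56.4 to 122 CPM in the 4 WT pools, and at 91.9 to 133 and 173 to 250 CPM in other blood cells. In high endothelial-like cells the ranges overlapped, at 222.6 to 326.5 CPM in the Xbp1-KO and 260.8 to 507.9 CPM in the WT pools. In the few stromal cells, mean Xbp1 was 101.9 CPM in the Xbp1-KO and 102.7 CPM in the WT mesenteric pools. In peripheral pools it was 88.65 and 70.56 CPM there. Which part of Xbp1 is deleted is not stated, so reads from its 3′ end may not check the deletion. Only 3 cell barcodes occurred in both libraries.

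The promoters were searched for the repeated unit that heat shock factors bind. RefSeq windows of 250 bases before to 50 bases after the start site (GRCm38.p6) were found for 8 of the 10 genes; Hspa8 and Hsp90aa1 are named only. Paired nGAAn units were searched as GAANNTTC and TTCNNGAA, each its own reverse complement, so that both strands were covered; neighbouring matches may overlap. Of all 32851 windows, 7.86% held GAANNTTC, 8.52% held TTCNNGAA, 15.1% held at least 1 of them and 1.96% at least 2. Of the 8 genes with a window, 7 had at least 1 match, against 17.0% of all genes, and 5 had at least 2, against 2.21%. Hspd1 and Hspe1 share the same matches, and the Hspa1a and Hspa1b windows are nearly identical, so these counts hold shared sequence more than once. Dnajb1 had no match in either of its windows. The stretches that carry the matches are printed 5′ to 3′ on the gene's strand with the matched bases in capitals, because they show the different arrangements: a single pair in the Hsp70 genes, spaced pairs in Hspb1 and Dnaja4, and an unbroken array between Hspd1 and Hspe1.
Hspa1a and Hspa1b: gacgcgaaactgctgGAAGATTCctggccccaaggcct
Hspb1: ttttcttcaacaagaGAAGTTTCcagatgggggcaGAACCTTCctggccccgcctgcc
Hspe1: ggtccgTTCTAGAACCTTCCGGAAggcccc
Dnaja4, far pair: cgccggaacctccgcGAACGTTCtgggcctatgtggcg
Dnaja4, near pair: gcctcctggcgGAACCTTCcgccggcgccg
Hsph1: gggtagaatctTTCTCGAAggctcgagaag

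The Hspa1a stretch lies at chr17:34972238-34972275 and the identical Hspa1b stretch at chr17:34959320-34959357, both on the minus strand and outside annotated exons, with the pair starting 104 bases before each start site. Over the whole window the 2 promoters were alike at 296 of 300 bases. The Hspb1 stretch is at chr5:135887787-135887844, plus strand, outside exons, and the Hspe1 stretch at chr1:55088053-55088082, plus strand. Hspd1 and Hspe1 are transcribed away from each other from start sites 215 bases apart, so these 3 overlapping matches, which began between 89 and 79 bases before the Hspe1 start, also lie before an annotated start of Hspd1 on the opposite strand. An exon of another Hspd1 transcript is annotated over that stretch. The Dnaja4 stretches are at chr9:54699454-54699491 and chr9:54699496-54699525, plus strand, the near one within an annotated Dnaja4 exon. The Hsph1 stretch is at chr5:149636351-149636380, minus strand, within an annotated Hsph1 exon, and 2 further matches follow the Hsph1 start site. A match describes the letters only.

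In other blood endothelial cells the inducible Hsp70 transcripts differed widely between pools. Hspa1a, which encodes the stress-inducible Hsp70, was counted at 706 and 1659 CPM in the peripheral and mesenteric WT pools of library 1 and at 911 and 2988 CPM in the corresponding Xbp1-KO pools. In library 2 the values were 1382, 4061, 2051 and 7565 CPM in the same order. The order of the 4 pools was therefore the same in both libraries, with Xbp1-KO mesenteric highest and WT peripheral lowest, and every pool of library 2 was above its counterpart in library 1. Its neighbour Hspa1b, the second inducible Hsp70 gene, stood at 472, 1080, 554 and 2129 CPM in library 1 and 1105, 3497, 1490 and 5660 CPM in library 2, in the same order of pools.

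Lymphatic cells showed a narrower range and a different balance of the pair. Hspa1a was at 632, 626, 644 and 1812 CPM in library 1 and at 773, 1153, 913 and 2343 CPM in library 2. Hspa1b was at 1204, 1073, 1328 and 2047 CPM and at 2128, 2590, 2389 and 4608 CPM. The Xbp1-KO mesenteric pool was the highest of its library for both genes, and in library 1 the other 3 pools lay close together for Hspa1a. Hspb1, the small heat shock protein that also caps actin filaments, was at 994, 1190, 996 and 2081 CPM and at 1627, 1745, 1363 and 1990 CPM in lymphatic cells. Hspb1 was the most abundant of the 10 in other blood cells, at 4588, 6205, 3956 and 9077 CPM and at 3810, 7166, 5157 and 11510 CPM, and the ranges of the 2 classes did not overlap. The plot of all 10 genes by class and pool shows these values beside those of high endothelial-like and stromal cells.

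**Figure D1:**
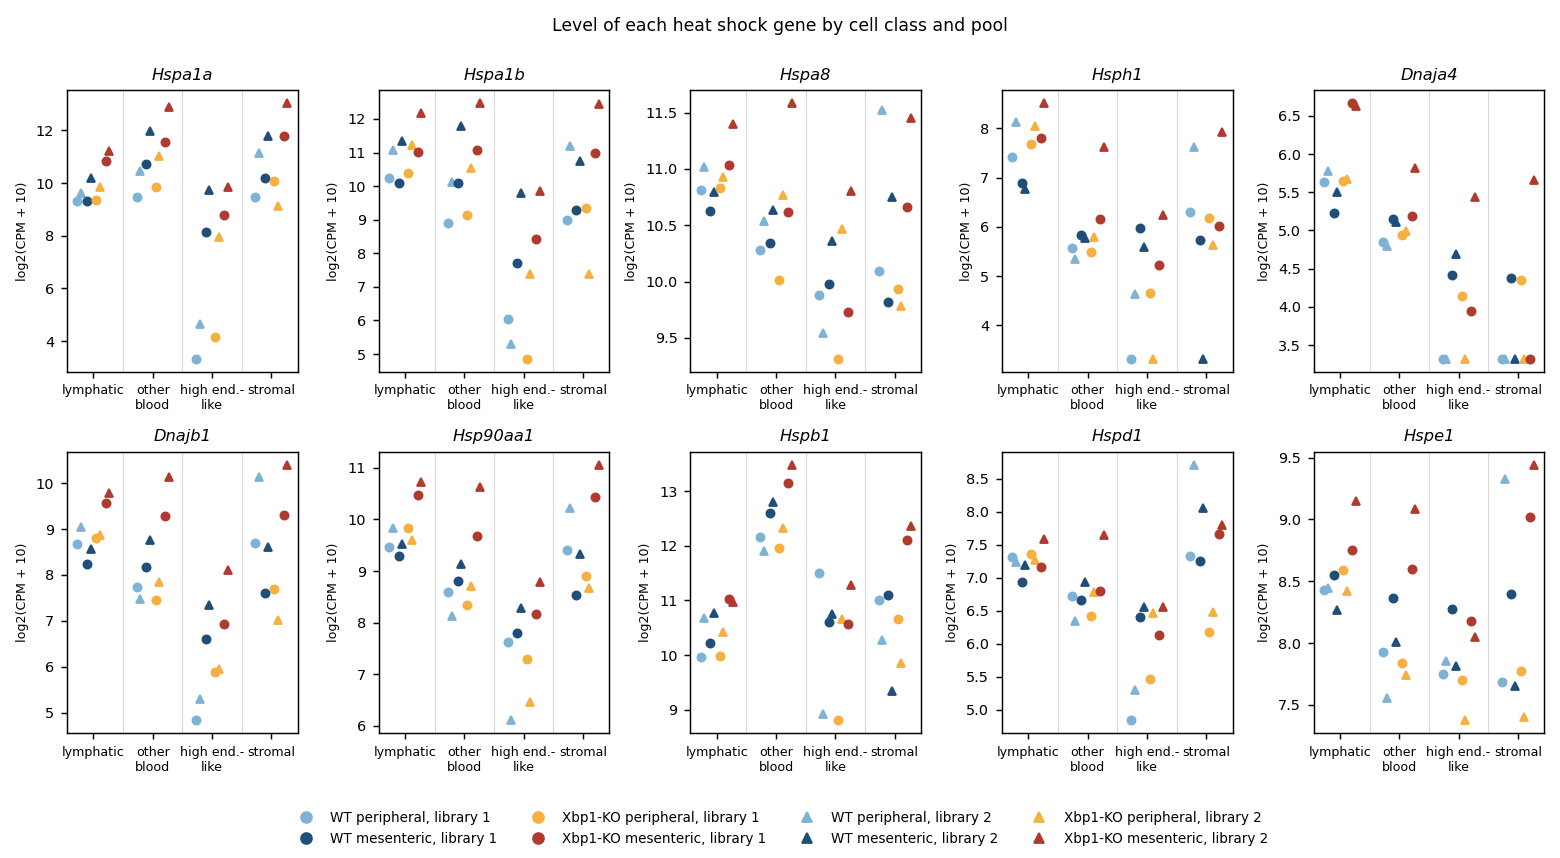
Level of each heat shock gene on a log2(CPM + 10) scale in lymphatic, other blood endothelial, high endothelial-like and stromal cells, 1 point per pool; colour gives tissue and genotype, circles library 1 and triangles library 2. The Xbp1-KO mesenteric pools are at or near the top of most panels, also in stromal cells, and Hspb1 in other blood cells lies above its lymphatic values in all 8 pools.

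The co-chaperones were ordered differently over the pools in the 2 classes. Dnajb1, the J-domain partner of inducible Hsp70, stood at 400, 291, 440 and 752 CPM in lymphatic cells of library 1 and at 514, 369, 461 and 875 CPM in those of library 2. Other blood cells held it at 205, 278, 165 and 614 CPM and at 168, 422, 222 and 1106 CPM. The WT mesenteric pool was thus the lowest of its library for Dnajb1 in lymphatic cells and the second highest in other blood cells. Hsph1, the Hsp110 nucleotide exchange factor of Hsp70, was also lowest in the WT mesenteric pool of each library in lymphatic cells, at 160, 109, 196 and 215 CPM and at 270, 98.6, 254 and 355 CPM. Other blood cells held Hsph1 at 37.9, 47.5, 34.8 and 62.0 CPM and at 30.7, 44.7, 45.7 and 186 CPM.

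The other 5 members are given by their range over the 8 pools. Hsp90aa1, the inducible cytosolic Hsp90, ranged from 620 to 1686 CPM in lymphatic and from 269 to 1578 CPM in other blood cells, and Dnaja4, another J-domain co-chaperone, from 27.4 to 91.4 and from 17.7 to 46.3 CPM. Hspa8, the constitutive Hsp70, ranged from 1570 to 2687 and from 1024 to 3060 CPM. The chaperonin Hspd1 ranged from 112 to 182 and from 70.8 to 190 CPM, and its partner Hspe1 from 298 to 559 and from 178 to 532 CPM. The highest value of each of these 5 genes was in an Xbp1-KO mesenteric pool in both classes.

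The first tested question was how the classes differ within a pool, with each pool serving as its own control. Lymphatic cells were compared with other blood cells over 8 pools with pool as a block (edgeR's quasi-likelihood test with Benjamini-Hochberg adjustment over all genes, as in every test given). In this test 6 members were higher in lymphatic cells and 2 were lower, so 8 of 10 were called, against 60.0% of the 11258 genes tested (32.5% higher and 27.5% lower). Hsph1 was higher by 1.69 ± 0.17 (log2 fold change ± SE, adjusted p = 4.73e-08), Dnaja4 by 0.77 ± 0.13 (4.8e-05) and Hsp90aa1 by 0.68 ± 0.13 (0.000175). Dnajb1 (0.44 ± 0.17), Hspd1 (0.34 ± 0.10) and Hspe1 (0.28 ± 0.10) were higher by less. Hspb1 was lower by -2.22 ± 0.11 (5.92e-13) and Hspa1a by -1.20 ± 0.14 (2.1e-07). Hspa1b (0.26 ± 0.16, adjusted p = 0.168) and Hspa8 (0.17 ± 0.09, 0.104) did not pass. Without library 1, 5 members were called, against 41.6% of genes, and Dnajb1 (0.35), Hspd1 (0.23) and Hspe1 (0.32) were not; without library 2, Hspe1 (0.18) was not called and Hspa8 (0.27) was.

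High endothelial-like cells, the cells of the venules through which lymphocytes enter the node, had less of most members than other blood cells of the same pools. In all, 8 of 10 were lower and none was higher, over 6 pools with at least 10 cells of both classes, against 41.1% of 9062 genes called and 20.8% called lower. The largest differences were those of Hspa1a (-2.55 ± 0.16, adjusted p = 3.53e-18), Hspa1b (-2.22 ± 0.13, 2.26e-19), Hspb1 (-1.78 ± 0.12, 8.93e-17) and Dnajb1 (-1.59 ± 0.13, 1.3e-14). Hsp90aa1 followed at -0.94 ± 0.12, and Dnaja4 (-0.68), Hsph1 (-0.52) and Hspd1 (-0.40) were called with smaller differences. Hspa8 (-0.22 ± 0.10, 0.0647) and Hspe1 (-0.03 ± 0.12, 0.863) did not pass. Without the 2 Xbp1-KO mesenteric pools, an alternative added after the data were seen, 5 of 10 members were called, against 30.2% of 8338 genes; Dnaja4 (-0.64) and Hspd1 (-0.14) were not, and Hsph1 changed sign (0.18). Without library 1 Dnaja4 (-0.27) was not called, and without library 2 Hspd1 (-0.34) and Hsph1 (-0.25) were not.

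At the level of single pools, Hspa1a in high endothelial-like cells was at 275 and 436 CPM in the WT and Xbp1-KO mesenteric pools of library 1 and at 832 and 901 CPM in those of library 2. In the peripheral pools, which held 6 to 35 such cells, it was at 0 and 7.60 CPM in library 1 and at 14.8 and 234 CPM in library 2. For the count of 0 among 53673 UMIs, 3 UMIs would be 55.9 CPM and the upper end of the 95% Poisson interval is 68.7 CPM. The same kind of interval for the 234 CPM is 107 to 444 CPM, and both cover counting error only. Hspb1 in the same cells was at 1541 and 1513 CPM and at 1724 and 2481 CPM in mesenteric pools.

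In the comparison of stromal with other blood cells, 1 member passed. Hspb1 was lower by -1.37 ± 0.12 (adjusted p = 1.08e-12) over 5 pools, and the other 9 did not pass; 24.7% of 8834 genes were called, 13.3% lower. Hspa1a differed by -0.11 ± 0.14 (adjusted p = 0.632) and Dnajb1 by 0.07 ± 0.20 (0.846). These tests rest on sums of 16 to 26 stromal cells, so a member that did not pass may still differ.

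**Figure D2:**
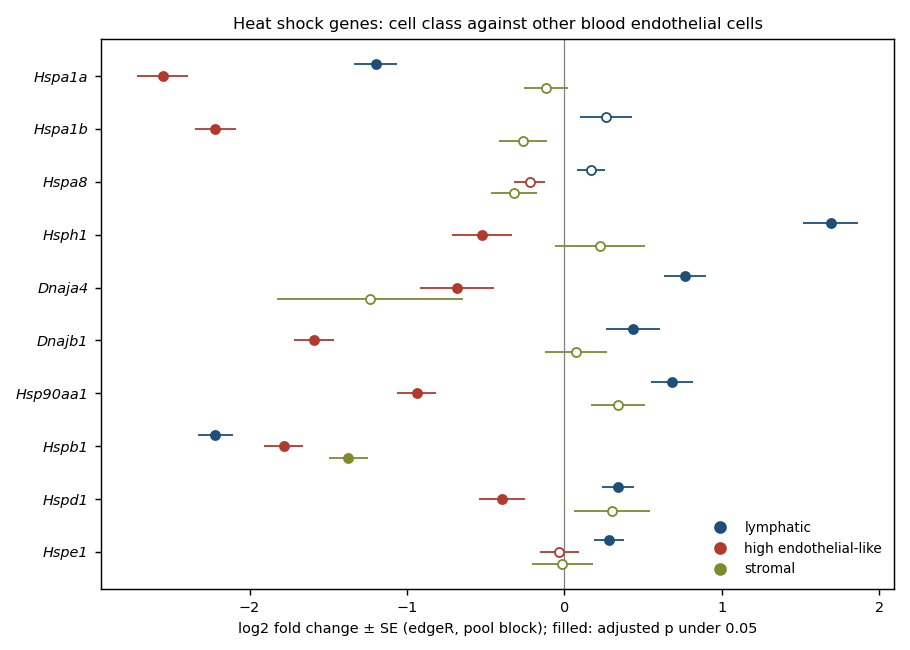
Log2 fold change ± SE of each heat shock gene in lymphatic, high endothelial-like and stromal cells against other blood endothelial cells of the same pools (edgeR with pool as a block); filled points have an adjusted p under 0.05. Hspb1 is below 0 in all 3 comparisons, and high endothelial-like cells are below 0 for all 10 genes.

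Within the other blood class, Hspa1a differed between subsets, in an order that depended on how pools were weighted. Over pools with at least 20 cells of a subset, the median was 2946 CPM in arterial-like cells (1723 to 9586 CPM, 8 pools), 2442 CPM in Fabp4 capillary-like cells (1567 to 7086 CPM, 8 pools) and 2064 CPM in Scgb3a1 capillary-like cells (820.5 to 8402 CPM, 8 pools). The last subset was also led by the interferon-induced genes Rsad2, Ifit3, Ifit3b, Ifi206, Ifi208 and Ifi213, and Scgb3a1 was among the leading genes of Aqp1 capillary-like cells too. The median was 1691 CPM in venous-like cells (528 to 3632 CPM, 3 pools) and 1647 CPM in Penk capillary-like cells (699 to 9808 CPM, 6 pools). Aqp1 capillary-like cells had a median of 1123 CPM (415 to 4620 CPM, 8 pools) and tip-like cells one of 701 CPM (256 to 1742 CPM, 4 pools). The ranges of arterial-like and Aqp1 capillary-like cells, both with 8 pools, overlapped. Summed over all cells, which weights the pools by their cells, Scgb3a1 capillary-like cells (3976 CPM) stood above Fabp4 capillary-like cells (2692 CPM). By the same sum tip-like (1292 CPM) and Aqp1 capillary-like cells (1286 CPM) were alike. The tip-like median lacked both Xbp1-KO mesenteric pools and both WT pools of library 2, which held fewer than 20 such cells. For Hsph1 the pool medians ran from 26.6 CPM in Fabp4 to 47.7 CPM in Penk capillary-like cells, and venous-like cells were at 90.4 CPM over 3 pools. In Scgb3a1 capillary-like cells Hsph1 was at 40.0 CPM in library 1 and 164 CPM in library 2.

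Among lymphatic subsets, Nts cells had the highest Hspb1 and the lowest Dnaja4 by the median over pools with at least 20 cells. For Hspb1 this median was 2409 CPM in Nts (1693 to 4055 CPM, 8 pools) and 2171 CPM in ceiling lymphatic cells (1549 to 3762 CPM, 7 pools), which line the outer wall of the subcapsular sinus. It was 665 CPM in Ccl20 floor cells (411 to 2381 CPM, 7 pools), which line its inner wall, and 521 CPM in Col14a1 floor cells (428.5 to 608 CPM, 3 pools). The ranges of ceiling and Ccl20 floor cells overlapped. For Dnaja4 it was 9.66 CPM in Nts cells (0 to 34.3 CPM) and 33.6 CPM in ceiling cells (23.3 to 75.1 CPM). Ccl20 floor cells (25.9 to 101 CPM), Marco cells (31.7 to 138 CPM, 7 pools) and Col14a1 floor cells (48.6 to 61.5 CPM) had medians of 61.2, 60.8 and 56.9 CPM and overlapped one another. Dnajb1 was lowest in Ptx3 lymphatic cells, with a median of 206 CPM (170 to 267 CPM, 5 pools), against medians of 290 to 624 CPM in the other 5 lymphatic subsets. Subsets were named from markers that exclude the heat shock genes, and these levels are descriptions.

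**Figure D3:**
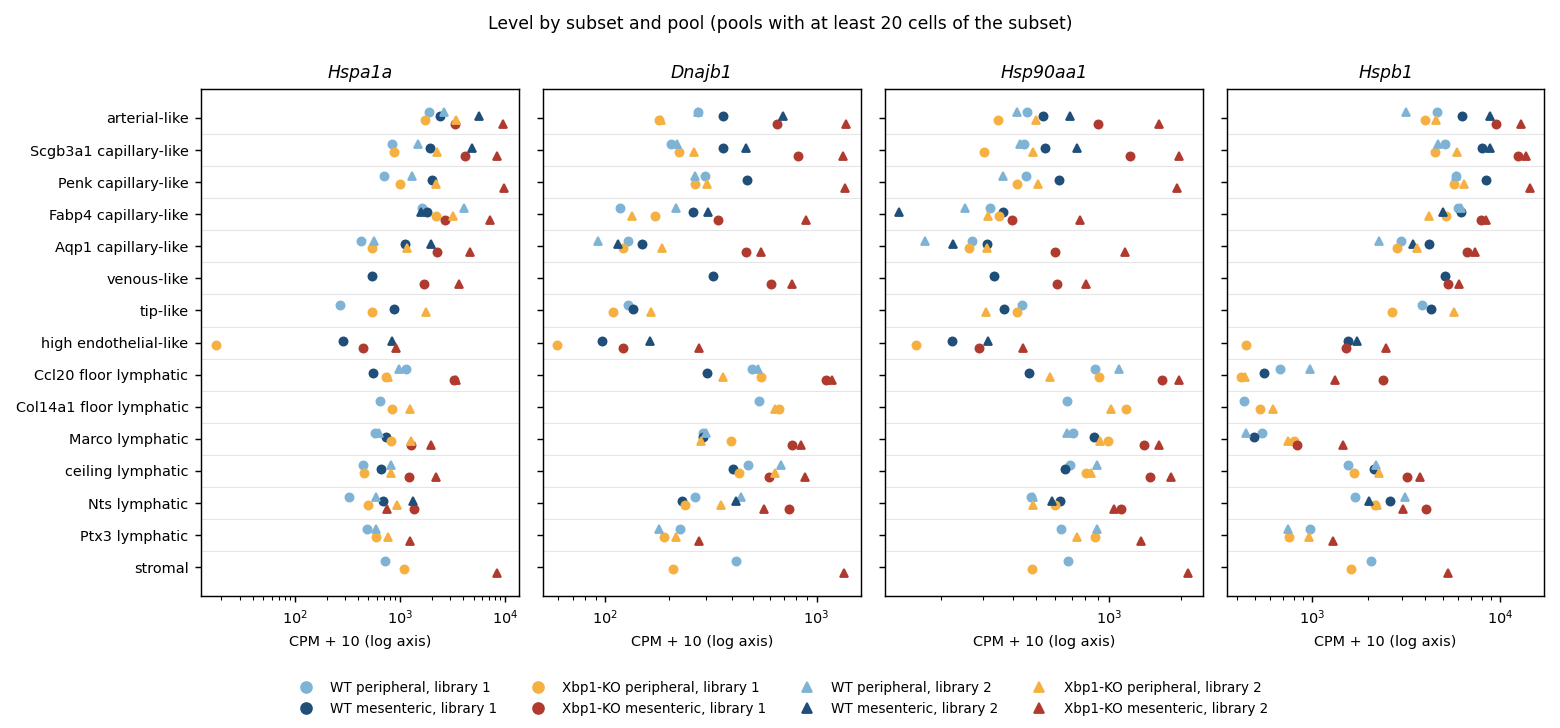
Level (CPM + 10, log axis) of Hspa1a, Dnajb1, Hsp90aa1 and Hspb1 in each subset, 1 point per pool with at least 20 cells of the subset; colour gives tissue and genotype, circles library 1 and triangles library 2. In most subsets the Xbp1-KO mesenteric pools lie to the right of the other pools, with Nts lymphatic cells of library 2 an exception for Hspa1a.

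The 2 inducible Hsp70 genes were used in different proportion by the classes. They lie on chromosome 17, Hspa1a at chr17:34969190-34972156 and Hspa1b at chr17:34956436-34959238, both on the minus strand and 9951 bases apart. Of the UMIs assigned to either, Hspa1b held 53.1% to 73.4% in the 8 lymphatic sums and 37.8% to 46.3% in the 8 other blood sums, with no overlap. The mean share was 66.3% ± 6.35 (SD, n = 8 pools) in lymphatic and 41.8% ± 2.74 in other blood cells. Within a pool the share was higher in lymphatic cells in 8 of 8 pools, by 24.5 ± 6.02 percentage points (exact permutation test over pools, two-sided p = 0.00781, the smallest this design can give; the test was chosen after the shares had been seen). Each lymphatic subset had a share of 58.2% or more in both libraries, and each other blood subset 48.0% or less. High endothelial-like cells of mesenteric pools, where the pair had at least 20 UMIs, were at 42.0% to 51.4% and stromal cells at 32.9% to 50.8%.

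Reads of near-identical genes can be divided wrongly, so the transcripts were compared. Of all 50-base stretches of the Hspa1a transcript, 58.8% also occur in Hspa1b, and 62.3% the other way, but none of those in the last 500 bases of either transcript is shared (GENCODE M21). The library type reads from the 3′ end. How the authors' counting treated reads of the shared part is not given in the sources used here, so the split between the genes carries that uncertainty.

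**Figure D4:**
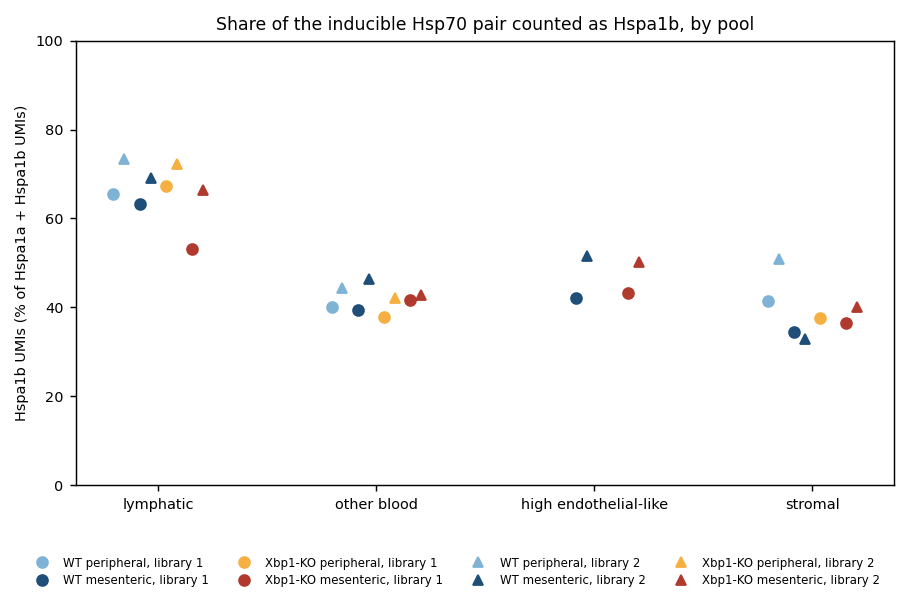
Share of the summed Hspa1a and Hspa1b UMIs that was counted as Hspa1b (percent, axis from 0 to 100), 1 point per pool with at least 20 UMIs of the pair, by class; colour gives tissue and genotype, circles library 1 and triangles library 2. All 8 lymphatic points, from 53.1% to 73.4%, lie above all 8 other blood points, from 37.8% to 46.3%.

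The WT pools compare the 2 tissues without the genotype. They were also the reference of the contrast that chose the genes, so their values were not independent of that choice. With n = 2 pools per tissue, no member was called in either class: 0 of 10 in lymphatic cells, where 94 of 10683 genes passed (0.88%; 1413 at an unadjusted p under 0.05), and 0 of 10 in other blood cells, where 18 of 10035 passed (0.179%; 594 unadjusted). With DESeq2, 1 and 0 members were called, and 62 and 35 genes. Without the filter on low counts more genes passed and members were called in both classes, as given below under processing. In other blood cells all 10 fitted differences were above 0, mesenteric over peripheral, led by Hspa1b (1.52 ± 0.62, adjusted p = 0.771), Hspa1a (1.43 ± 0.53, 0.634) and Dnajb1 (0.86 ± 0.30, 0.588). In lymphatic cells the fitted differences were -0.93 ± 0.29 for Hsph1 (0.182), -0.43 for Dnaja4 and -0.40 for Dnajb1, and 4 of 10 were above 0. Over all genes, 5102 of 10035 were above 0 in other blood cells and 5324 of 10683 in lymphatic cells. The library numbers pair the pools, since the 4 pools of a library were captured together. With library as a block, 5.08% of genes were called in lymphatic and 2.12% in other blood cells. In that fit Hspa1a (1.36, adjusted p = 2.19e-06), Hspa1b (1.40, 2.22e-06) and Hspb1 (0.63, 0.0148) were called in other blood cells and Hsph1 (-0.80, 0.00892) in lymphatic cells.

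The tissue difference itself depended on the class. In 1 fit over the 16 lymphatic and other blood sums with pool as a block, added after the data were seen, 4 of 10 members differed in their WT tissue effect, against 1.09% of 11258 genes. Lymphatic minus other blood, the difference in log2 effect was -1.31 ± 0.20 for Hspa1b (adjusted p = 2.71e-05), -1.24 ± 0.23 for Dnajb1 (0.000969), -1.05 ± 0.23 for Hspa1a (0.00723) and -1.22 ± 0.30 for Hsph1 (0.0195). With DESeq2, 2 of the 4 were called, Hspa1b and Dnajb1, and Hspa1a (-1.02, adjusted p = 0.247) and Hsph1 (-1.28, 0.411) were not. Because the WT pools entered the contrast that chose the genes, the share of members called was not independent of that choice.

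Cell composition and other stress genes moved with the tissue. Scgb3a1 capillary-like cells, the subset led by interferon-induced genes as well, were 34.8% and 29.6% of other blood cells in the WT mesenteric pools of libraries 1 and 2, against 11.8% and 11.2% in WT peripheral pools, and Penk capillary-like cells 4.57% and 3.57% against 35.3% and 24.5%. Within subsets of the class, Hspa1a was higher in the WT mesenteric pool in 9 of 10 comparisons with at least 20 cells on both sides, the exception being Fabp4 capillary-like cells of library 2 (1567 against 4081 CPM). Hspa1b was higher in 9 of 10, Dnajb1 in 10 of 10 and Hsph1 in 7 of 10. In lymphatic subsets, with 5 such comparisons, Hspa1a was also higher in 4, the exception being Ccl20 floor cells of library 1 (540 against 1136 CPM), Hspa1b was higher in 3 and Dnajb1 and Hsph1 in 1 each. Nts cells were 20.7% and 38.5% of lymphatic cells in the WT mesenteric pools against 11.7% and 11.6% in WT peripheral pools, ceiling cells 22.8% and 20% against 29.6% and 44.2%, and Col14a1 floor cells 1.27% and 0% against 10.8% and 6.2%. Of the immediate-early genes, a list of 17 that cell isolation is known to raise, 8 fell and none rose in WT mesenteric lymphatic cells, where the median of the 10 members was -0.14. The list had a median log2 difference of -0.97 against -0.00 for all genes, and among the 8 were Myc (-1.50 ± 0.24, adjusted p = 0.0102), Zfp36 (-1.34 ± 0.21, 0.0071) and Fosb (-1.30 ± 0.26, 0.0309). In other blood cells 0 of 17 passed, with a median of -0.67, and the median of the members was 0.51. Their part in the result was not tested. Of the 48 other genes of the chaperone pathway, 46 were tested in lymphatic cells and only Cryab, a small heat shock protein, rose (2.69 ± 0.53, 0.0317); none passed in other blood cells.

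Library 2 was above library 1 in the inducible pair in both classes. There was 1 capture on each side, so the p-values set this difference against the spread of the 4 pairs of pools within these 2 captures and say nothing of captures in general. In lymphatic cells 4 of 10 members were higher and none lower, against 3.4% of 10683 genes called and 2.34% called higher: Hspa1b (1.05 ± 0.08, adjusted p = 8.95e-08), Hspa1a (0.53 ± 0.09, 0.00179), Hsph1 (0.51 ± 0.12, 0.0143) and Hspb1 (0.43 ± 0.10, 0.0142). In other blood cells Hspa1b (1.40 ± 0.07, 2.75e-08), Hspa1a (1.16 ± 0.06, 9.03e-08) and Hspa8 (0.53 ± 0.10, 0.00296) were higher, against 15.1% of 10035 genes called and 7.85% called higher. In other blood cells these 3 were higher in library 2 in 4 of 4 pairs of pools; in lymphatic cells Hspa1b and Hspa1a were too, but Hspb1 was lower in the Xbp1-KO mesenteric and Hsph1 in the WT mesenteric pool of library 2. The difference between libraries was itself larger in other blood cells for Hspa1a (lymphatic minus other blood -0.63 ± 0.09, adjusted p = 0.000303) and Hspa1b (-0.36 ± 0.08, 0.0312), against 0.675% of 11258 genes. Leaving out 1 pair of pools at a time kept Hspa1a and Hspa1b called in both classes; in lymphatic cells 2 to 3 members were called. The share of all genes called was 1.53% without the WT peripheral, 2.06% without the WT mesenteric, 1.8% without the Xbp1-KO peripheral and 3.03% without the Xbp1-KO mesenteric pools. Hspb1 was not called without the WT peripheral (0.34), WT mesenteric (0.39) or Xbp1-KO peripheral (0.41) pools, nor Hsph1 without the WT peripheral (0.41), Xbp1-KO peripheral (0.54) or Xbp1-KO mesenteric (0.44) pools. In other blood cells 8 members were called without the WT peripheral pools, where 12.8% of genes were, among them Hspb1 (0.29) and Dnajb1 (0.62). With DESeq2, Hspa1b (-0.34, adjusted p = 0.0564) no longer differed between the classes past the threshold. Without the block on pairs of pools no member was called in either class, and DESeq2 called fewer genes in both, as given below under processing. What differed between the captures is not given in the sources used here.

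The wider chaperone pathway was counted between libraries beside the shares of all genes given above. In lymphatic cells 7 of the 46 tested pathway genes were higher, against 2.34% of all genes, and none lower, among them Cryab (0.99 ± 0.21, adjusted p = 0.00841), Ier5, which encodes a regulator of heat shock factor (0.61 ± 0.10, 0.00105), and the chaperonin subunit Cct4 (0.61 ± 0.11, 0.00171); 35 of the 46 were above 0. Of the same 46 genes, 14 were higher, against 7.85% of all genes, and 1 lower in other blood cells, among them the Hsp90 co-chaperone Ahsa1 (1.03 ± 0.12, 6.83e-05), Ier5 (0.94 ± 0.10, 2.69e-05) and Hspa2 (0.79 ± 0.20, 0.0175); 34 of the 46 were above 0. Over all genes, 5210 of 10683 were above 0 in lymphatic cells and 4922 of 10035 in other blood cells. Of the 17 immediate-early genes, 2 and 6 were higher, led by Jund in both classes (0.48 ± 0.08 and 0.85 ± 0.06). A list of 15 endoplasmic reticulum chaperones and related genes such as Herpud1, called chaperones here, holds no member. Of these 15, 1 was lower in lymphatic cells and 4 were higher and 2 lower in other blood cells. Median UMIs per lymphatic cell were 4820 to 4924 in the pools of library 1 and 6104 or more in those of library 2.

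**Figure D5:**
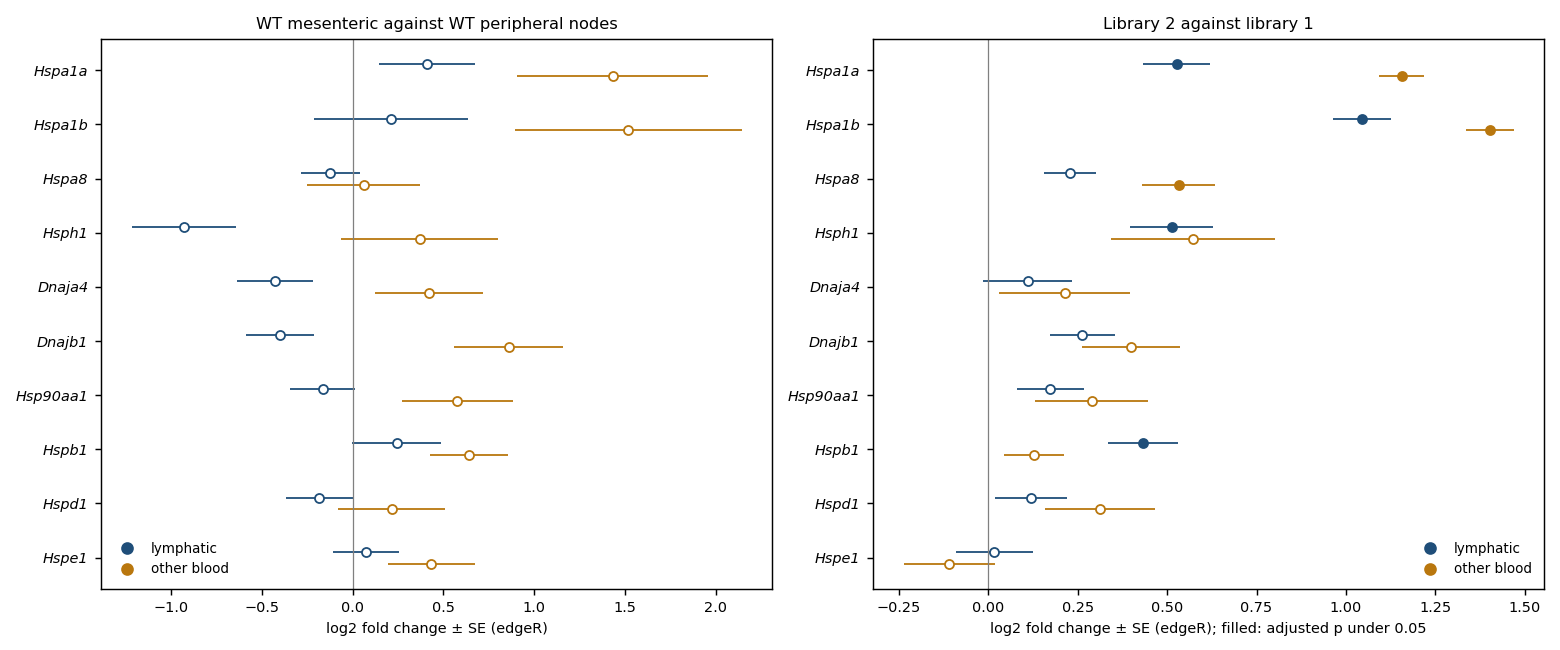
Log2 fold change ± SE of each heat shock gene between WT mesenteric and WT peripheral nodes (left) and between library 2 and library 1 (right), in lymphatic and other blood endothelial cells (edgeR); filled points have an adjusted p under 0.05. On the left no point is filled and the classes separate for Hspa1a, Hspa1b, Hsph1 and Dnajb1; on the right Hspa1a and Hspa1b are above 0 in both classes.

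The contrast that chose the genes is given as values only. In mesenteric nodes the fitted difference of Xbp1-KO over WT in lymphatic cells was 1.60 ± 0.21 for Dnaja4, 1.42 ± 0.29 for Hsph1, 1.29 ± 0.19 for Dnajb1, 1.21 ± 0.27 for Hspa1a and 1.17 ± 0.18 for Hsp90aa1, and 0.37 to 0.84 for the other 5. The difference in other blood cells was 1.50 ± 0.39 for Hsph1, 1.37 ± 0.30 for Dnajb1 and 1.33 ± 0.31 for Hsp90aa1, and 0.60 to 0.96 for the other 7. In peripheral nodes the differences ran from -0.17 to 0.14 in lymphatic cells and from 0.02 to 0.52 in other blood cells. Both Xbp1-KO mesenteric pools lay above both WT mesenteric pools for 8 of 10 genes in lymphatic cells and 6 of 10 in other blood cells, counts that the choice of the genes shaped; the same held for 20.2% and 10.5% of all genes tested. That count sets pools of different libraries against each other; within each library, the Xbp1-KO mesenteric pool was above the WT one in both libraries for 10 of 10 genes in both classes, against 30.9% and 19.3% of all genes. In high endothelial-like cells the count was 0 of 10, of which 9 passed the filter on low counts, against 9.89% of genes, and within libraries it was 4 (Hspa1a, Hspa1b, Dnajb1 and Hsp90aa1), against 18.9%. Hspa1a there was 1.59 times as high in the Xbp1-KO as in the WT mesenteric pool of library 1 and 1.08 times in library 2, and Hsph1 0.524 and 1.71 times. For peripheral pools the counts were 0 in lymphatic and 1 (Dnaja4) in other blood cells, against 18.0% and 12.8%, and within libraries 3 (Hspa1a, Hspa1b and Hspd1) and 3 (Hspa1a, Hspa1b and Dnaja4), against 31.4% and 25.7%.

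The Xbp1-KO mesenteric pools were also the highest of their library for Hspa1a, Hsp90aa1 and Hspb1 in stromal cells. In stromal cells Hspa1a was at 704, 1166, 1074 and 3541 CPM in library 1 and at 2270, 3503, 555 and 8368 CPM in library 2, in the order used above. The pools held 16 to 26 stromal cells in library 1 and 7, 3, 6 and 21 in library 2, so the second set rests on few cells. Hsp90aa1 was at 669, 360, 469 and 1378 CPM and at 1191, 637, 396 and 2130 CPM. Hspb1 was at 2043, 2191, 1606 and 4382 CPM and at 1228, 637, 912 and 5289 CPM. Both Xbp1-KO mesenteric pools were above both WT mesenteric pools for 7 of 10 members in these cells, against 11.0% of the 1856 genes that passed the filter on low counts there; Dnaja4 was the member that did not pass it. Within libraries the count was 8, against 22.4%. In peripheral stromal cells no member had both Xbp1-KO pools above both WT pools, against 15.6% of genes, and 5 of 10 had both below, against 16.5%. Leukocytes numbered 9 in the Xbp1-KO and 10 in the WT mesenteric pool of library 1, and 3 and 2 in those of library 2. Of the 9 members detected in them, 3 were higher in the Xbp1-KO pool of library 1 and 6 lower, and 9 were higher in that of library 2. Of the 2649 genes with at least as many UMIs over these pools as the lowest of the 9, 35.1% and 67.1% were higher, and 22.3% in both libraries. The 3 that were higher in both libraries were Hspa1b (1030 against 678 CPM and 921 against 388 CPM), Hsph1 (53.3 against 33.9 and 72.7 against 35.3) and Hspe1 (408.5 against 390 and 242 against 176). Hspa1a was at 1137 against 1864 CPM in library 1 and at 1502 against 176 CPM in library 2. Dividing cells, 40 over all pools, went the other way for most members. Mean levels in their Xbp1-KO against WT mesenteric pools (n = 2 each) were 1876 against 2690 CPM for Hspa1a and 670 against 3258 CPM for Hspa1b. Hsph1 was at 118 against 587 CPM there. Only Dnaja4 was higher (26.9 against 7.85 CPM), and the share of all genes was not computed. The labels do not say whether the deletion is confined to endothelial cells.

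Within subsets most members were higher in the Xbp1-KO mesenteric pools, and in peripheral nodes the members were split. Where a subset had at least 20 cells in both pools, Dnajb1 and Hsp90aa1 were higher in the Xbp1-KO mesenteric pool in 10 of 10 subsets of library 1 and 6 of 6 of library 2, and Hspa1a in 10 of 10 and 5 of 6. The exception was Nts lymphatic cells of library 2, at 738 CPM against 1325 CPM. The median ratio over subsets was 2.1 and 2.46 for Dnajb1, 1.83 and 2.52 for Hsp90aa1 and 1.94 and 1.71 for Hspa1a. In peripheral nodes Hspa1a was higher in the Xbp1-KO pool in 11 of 13 subsets of library 1, stromal cells among the 13, and in 8 of 10 of library 2, with median ratios of 1.3 and 1.41. Hspa1b was higher in as many (1.14 and 1.11). Hsp90aa1 was higher in 7 and 6 (1.04 and 1.17) and Dnajb1 in 5 and 4 (0.904 and 0.94). Over all members, 84 of 100 and 55 of 60 subset values were higher in the Xbp1-KO mesenteric pool, against 44.8% and 47.8% of the values of all 4573 genes with at least the summed UMIs of the lowest member, Dnaja4. In the Xbp1-KO peripheral pool 70 of 130 and 65 of 100 were higher, against 51.8% and 49.3%. The contrast of genotypes chose the members, so these counts are a description. Subsets of 1 pool share their handling and are not replicates.

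In other blood and lymphatic cells the median over cells was higher in the Xbp1-KO than in the WT mesenteric pool of each library. With each cell thinned to 2000 UMIs, other blood cells of the WT mesenteric pools had a median of 3 UMIs of the inducible pair in library 1 and 11 in library 2, and those of the Xbp1-KO mesenteric pools 7 and 24. The 90th percentiles were 15 and 36.2 against 24 and 53. In lymphatic cells the medians were 2 and 5 against 5 and 11. High endothelial-like cells of library 1 had a median of 0 in both pools, with 90th percentiles of 3 and 5, and those of library 2 had medians of 1 and 2, with 90th percentiles of 10.5 and 12. No cell type here is known to lack these genes, so the level that free RNA gives was not measured; the fewest were in 33 high endothelial-like cells of the Xbp1-KO peripheral pool of library 1, of which 97.0% had 0. Thinning left out 377 and 41 WT and 172 and 56 Xbp1-KO mesenteric other blood cells with fewer UMIs, and at most 23 lymphatic cells of each of these pools. Within pools, Spearman's rho across thinned other blood cells was 0.45 to 0.80 between Hspa1a and Hspa1b, 0.37 to 0.71 between Hspa1a and Hspb1 and -0.04 to 0.17 between Hspa1a and Hspd1 over 8 pools. Between Hspa1a and the immediate-early gene Fos it was 0.09 to 0.65. In lymphatic cells the same pairs gave 0.29 to 0.53, 0.10 to 0.41, -0.09 to 0.10 and -0.05 to 0.33. Cells of a pool share their library and are not replicates.

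Other stress genes differed between the same pools. Immediate-early genes in lymphatic cells summed to 24490, 14070, 24590 and 18930 CPM in library 1 and to 25400, 13780, 23810 and 23380 CPM in library 2, in the order of pools used above. The sums in other blood cells were 28370, 19610, 25140 and 27230 CPM in library 1 and 31070, 20480, 35760 and 45300 CPM in library 2. The WT mesenteric pool was the lowest of its library in both classes, and the Xbp1-KO mesenteric pool was the highest only in other blood cells of library 2. Both Xbp1-KO mesenteric pools were above both WT mesenteric pools for 15 of 17 immediate-early genes in lymphatic and 14 of 17 in other blood cells, for 12 and 7 of the 46 tested pathway genes, and for 2 and 1 of the 15 endoplasmic reticulum chaperones. Over all genes the share was 20.2% and 10.5%, against 26.1% and 15.2% of the pathway genes. Of the endoplasmic reticulum chaperones, 5 had both Xbp1-KO pools below both WT pools in each class, against 15.1% and 17.1% of all genes. In stromal cells 2 of 17 immediate-early genes were above, a share of 11.8% against 11.0%, and 10 of the 21 pathway genes that passed the filter there, a share of 47.6%. The median fitted difference was 0.70 and 0.88 for immediate-early genes, 0.06 and 0.03 for the pathway list and -0.21 and -0.18 for endoplasmic reticulum chaperones. The median mitochondrial share of UMIs was 2.15% and 2.26% in the Xbp1-KO and 2.21% and 2.35% in the WT mesenteric pools. The part of handling, of sex and of the deletion in the heat shock levels was not tested; pool, handling and genotype cannot be told apart within a library.

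The genes whose pattern over the 8 lymphatic sums was most like the mean of the 10 members, by Pearson's r of log2 CPM, were Bag3 (r = 0.96), a co-chaperone of Hsp70 at 63.7 to 279 CPM, followed by Npl (0.934), Aatf (0.934), Ier5l (0.933) and Ube2v2 (0.93). Over the 8 other blood sums they were Rhob (0.979), the J-domain co-chaperone Dnaja1 (0.978) at 401 to 1276 CPM, Cacybp (0.94), Ccn1 (0.935) and the small heat shock protein Hspb8 (0.935). The median r was 0.288 and 0.38 for the 46 pathway genes tested, 0.359 and 0.353 for the 17 immediate-early genes, -0.287 and -0.267 for endoplasmic reticulum chaperones and 0.019 and -0.047 for all genes. The 8 sums share 2 libraries and their depth, and these values are descriptions.

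The other lists were counted in the class comparisons too. In high endothelial-like cells, where 8 members were lower, 11 of 15 endoplasmic reticulum chaperones were higher than in other blood cells and 1 was lower, against 20.3% and 20.8% of all genes, led by Sdf2l1 (1.25 ± 0.16, adjusted p = 5.3e-09), Calr (1.09 ± 0.11, 8.3e-12) and Hspa5 (0.98 ± 0.12, 2.44e-09). Of 17 immediate-early genes, 14 were lower and 2 higher there, with Nr4a1 at -2.78 ± 0.14 and Dusp1 at -1.18 ± 0.09. Pathway genes were split, with 7 higher and 10 lower of 46, the latter including Bag3 (-1.19 ± 0.15) and Hspb8 (-1.28 ± 0.35). In lymphatic cells 10 of 47 pathway genes were higher and 8 lower, smaller shares than the 32.5% and 27.5% of all genes. Of 17 immediate-early genes, 14 were lower and 3 higher there, with a median of -0.57, Nr4a1 at -3.07 ± 0.14 and Btg2 at -1.89 ± 0.09 among the lower and Myc at 2.01 ± 0.17 among the higher. Of the small heat shock proteins, Cryab was higher by 4.59 ± 0.33 and Hspb8 lower by -4.67 ± 0.36. Hspa4l, an Hsp110 relative of Hsph1, was higher by 2.60 ± 0.16 (1.24e-11), and 9 of 15 endoplasmic reticulum chaperones were higher and 2 lower. Stromal cells had 9 immediate-early genes higher and 3 lower than other blood cells, against 11.4% and 13.3% of all genes, and 2 pathway genes higher, Cryab (6.98 ± 0.31) and Dnajb4 (1.45 ± 0.26), with 3 lower.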

How the data were processed

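Gene counts were deposited by the authors as filtered matrices of UMI counts, 1 per library, for which the file headers name Cell Ranger 6.0.1 and the submitters' processing notes 6.1 and mm10; hashtag counts came in the same matrices. Whether intronic reads were counted is not given in the sources used here. Tags were called with HTODemux (Seurat 5.3.0, quantile 0.99). A cell was kept if it had 1 tag, 500 or more genes, no more than 10% mitochondrial UMIs and no doublet call from scrublet. Clustering used 1969 variable genes without the 10 members and the listed genes, 30 principal components, 15 neighbours and Leiden resolution 1 (scanpy 1.11.5), and clusters were named from listed markers. Raw counts were summed per pool and class (at least 10 cells for class comparisons) and tested with edgeR 4.0.16 (quasi-likelihood, TMM, Benjamini-Hochberg at 0.05, R 4.3.3), DESeq2 1.42.0 being an alternative. The tests were checked on simulated counts with a dispersion of 0.03. Of genes changed by 1 log2 unit, the stromal test recovered 30.9%. The WT tissue tests recovered 36.3% in lymphatic and 39.1% in other blood cells. Lymphatic sums held 425826 to 6555442 UMIs and other blood sums 847086 to 2907505; intervals cover counting error only.

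The members and gene lists were chosen with earlier results of these data known. All 10 members are given; from each list, up to 3 called genes with the largest differences, and the 5 genes most like the members, were named. The library pairs the 4 pools that were captured together: deviations of same-library pools from their group means correlated at 0.052 to 0.221 in lymphatic and at 0.154 to 0.419 in other blood cells. Alternatives were DESeq2, no filter on low counts, adding or dropping the block, leaving out a library or pool, another tag rule (ratio of 3 with 10 UMIs) and Leiden resolution 0.5.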

Additional observations from a re-analysis of the deposited data

Results flagged for a closer look

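The WT tissue effect (mesenteric over peripheral, log2) differed between lymphatic and other blood endothelial cells for 4 heat shock genes, by a term fitted for that difference after the data were seen (edgeR's quasi-likelihood test, adjusted over 11258 genes). Lymphatic minus other blood, it was -1.31 for Hspa1b, -1.24 for Dnajb1, -1.22 for Hsph1 and -1.05 for Hspa1a. The difference between libraries also depended on the class, by -0.63 for Hspa1a and -0.36 for Hspa1b. With DESeq2 the calls of Hspa1a (adjusted p = 0.247) and Hsph1 (0.411) in the tissue term and of Hspa1b in the library term (0.0564) were lost. Each rests on n = 2 pools per tissue and genotype, and the subsets that make up the other blood class differed in their shares between tissues, whose part in the result was not tested. The WT pools behind the tissue term were also the reference of the contrast that chose the genes, so it was not independent of that choice.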

How the results depend on the processing

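Of 600 member values recomputed, 498 kept their direction and side of the threshold or moved by less than 1 SE, 65 crossed the threshold and 24 changed sign. The other 13, from fits that give no test, kept their sign and moved by more than 1 SE. The causes were not tested. With DESeq2, genes called changed from 94 to 62 (WT tissue, lymphatic; 1 member, Hsph1), 18 to 35 (WT tissue, other blood), 363 to 215 and 1511 to 488 (library, lymphatic and other blood), 123 to 25 (tissue by class; 2 members) and 76 to 15 (library by class; 1 member). Without the filter on low counts they were 329 (1 member), 167 (3 members) and, for library by class, 157; members called were 2 for stromal cells and 7 for the library in other blood cells. The library block gave 543 and 213 genes and 1 and 3 members in the WT tissue tests. Without the replicate block, members called were 4 (lymphatic against other blood), 5 (high endothelial-like) and 0 and 0 (library, with 21 genes in lymphatic cells); the block changed no other count by over 1.5 times. Without the Xbp1-KO mesenteric pools 5 members were called in high endothelial-like cells, against 30.2% of genes. Where no share of all genes stands beside a member count in this section, the count describes that alternative fit only.

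Leaving out a library gave 4407 to 6054 genes and 5 to 8 members for lymphatic against other blood cells, and 2393 to 2762 genes and 6 to 7 members for high endothelial-like cells. Leaving out 1 pair of pools gave 162 to 329 genes and 2 to 3 members (library, lymphatic) and 870 to 1264 genes and 3 to 8 members (library, other blood). Tissue tests without a library, and the stromal test without library 1, have no residual degrees of freedom and give values only.

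Values that changed sign lay mostly near 0; ranges are over leaving out library 1 or 2. In the WT tissue test they were Hspd1 (-0.351 to 0.037), Hspe1 (-0.103 to 0.182) and Hspa1b (-0.105 to 0.361) in lymphatic cells and Hspd1 (-0.105 to 0.650) in other blood cells. For lymphatic against other blood cells they were Hspa1b (-0.071 without the block) and Hspa8 (-0.013 to 0.274). For high endothelial-like cells they were Hspe1 (0.006 without the block, -0.400 to 0.119 over libraries, 0.262 without the Xbp1-KO mesenteric pools) and Hsph1 (0.177 without those pools). For stromal cells they were Hspe1 (0.103 with DESeq2, 0.187 without the block, -0.047 to 0.311 over libraries, 0.001 with the other tag rule), Hspa1a (0.107 without the block, -0.106 to 0.089 over libraries, 0.057 with the other tag rule) and Dnajb1 (-0.030 without the filter). For the library, over leaving out 1 pair of pools, they were Hspe1 in lymphatic cells (-0.124 to 0.099) and, in other blood cells, Hspe1 (-0.325 to 0.005, and 0.033 without the block) and Dnaja4 (-0.047 to 0.325). Hsph1 was at 0.076 with DESeq2 in the library-by-class term. Stromal sums and the peripheral high endothelial-like sums hold the fewest UMIs of the compared classes, which limits the low genes there.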

Other observations

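Barcodes left out of the comparisons carried the same transcripts. The 83 barcodes of library 2 without a called tag had 4948 CPM of Hspa1a and 9415 CPM of Hspb1, against 2611 and 4274 CPM in the kept cells; in library 1 the 238 such barcodes had 1043 and 5586 CPM against 918 and 2672 CPM. Barcodes with a single tag and over 10% mitochondrial UMIs had 852 and 725 CPM of Hspa1a in libraries 1 and 2. The barcodes of each kind are 1 set per library and mix pools, so no test was made.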
